A study of Homo sapiens with 45 samples.

Results

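The genes described here are 37 interferon-stimulated genes, chosen by symbol as known targets of interferon, out of 37486 genes with a read in any library. All 37 were found in the deposited tables, each as the sum over the RefSeq transcripts of its symbol. The study compared RNA of human bone and soft tissue sarcoma cell lines by sequencing of poly(A) RNA, in 45 libraries. Osteosarcoma was represented by 6 lines (U2OS, SAOS2, MG63, KHOS, G292 and HOS-MNNG) and Ewing sarcoma by 7 lines (TC71, SKES1, RDES, MHHES1, A673, EW24 and EW3), with 3 libraries of each line and no stated treatment. A further 6 libraries came from A673 cells with sh908, a hairpin aimed at KCNN1 that doxycycline switches on, 3 without doxycycline (uninduced) and 3 with it (induced). The labels do not say whether libraries of a line came from separate cultures, so p-values between libraries measure only the spread between these libraries. Each line is 1 established culture, HOS-MNNG and KHOS both descend from the HOS line, and 1 hairpin in 1 line stands for the knockdown.

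Interferons are secreted proteins that cells release on sensing viral or misplaced nucleic acid. Type I interferons bind the receptor IFNAR1/IFNAR2, whose kinases JAK1 and TYK2 phosphorylate transcription factors that include STAT2. STAT2 joins IRF9 in the complex ISGF3, which binds the interferon-stimulated response element in promoters and raises transcription of antiviral genes. Tumour lines are known to differ in the resting level of this programme.

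The core of that element is a pair of GAAA words with 2 bases between them, GAAANNGAAA, or TTTCNNTTTC read on the other strand. It was searched on both strands, overlapping matches included, in the 250 bases before each transcription start of the RefSeq promoter table for GRCh38.p14. Of the 37 genes, 29 were in that table, and 21 of them held a match at 1 or more starts (72.4%). The share was 45.2% of 31 other interferon-stimulated genes in the table and 3.71% of all 27305 genes in it. By single windows, 24 of 36 member windows (66.7%) and 3.02% of all 35116 windows held a match. IFI6, IFIH1 and HERC5 had 3 matches in 1 window. OAS1, IFI35, IRF1, IRF9, STAT2, RIGI, HERC6 and SAMD9L had none, which says only that these letters are not in those windows. The 120 bases before the start follow for 6 genes, 5′ to 3′ on the gene's strand, with matches in capitals. ISG15, IFI6, IFIT1 and IFITM3 are shown as effectors whose levels by line and by library are described below, and ISG20 and IRF1 because they differed between the tumour types.
ISG15 (chr1:1013377-1013496, plus strand): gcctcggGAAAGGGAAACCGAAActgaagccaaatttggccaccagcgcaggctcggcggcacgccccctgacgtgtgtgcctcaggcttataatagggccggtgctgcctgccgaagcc
IFI6 (chr1:27672193-27672312, minus strand): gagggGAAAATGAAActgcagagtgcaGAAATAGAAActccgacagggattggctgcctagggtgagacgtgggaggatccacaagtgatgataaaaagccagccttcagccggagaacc
IFIT1 (chr10:89392503-89392622, plus strand): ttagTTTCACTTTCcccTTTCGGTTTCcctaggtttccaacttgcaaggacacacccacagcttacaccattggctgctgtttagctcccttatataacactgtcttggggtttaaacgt
IFITM3 (chr11:320861-320980, minus strand): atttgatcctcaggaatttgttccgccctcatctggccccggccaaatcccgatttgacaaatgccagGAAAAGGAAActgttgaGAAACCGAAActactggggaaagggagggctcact
ISG20 (chr15:88638896-88639015, plus strand): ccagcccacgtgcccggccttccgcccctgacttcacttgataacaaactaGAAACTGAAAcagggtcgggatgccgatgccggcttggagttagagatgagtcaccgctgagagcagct
IRF1 (chr5:132490774-132490893, minus strand): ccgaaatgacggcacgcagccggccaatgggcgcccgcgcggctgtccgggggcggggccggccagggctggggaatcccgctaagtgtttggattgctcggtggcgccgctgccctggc
The 2 matches of ISG15 overlap, those of IFIT1 and IFITM3 lie close to each other, and ISG20 has a single match. IRF1 has no match in this window.

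Several members are neighbours in the genome (GRCh38.p14). IFIT2, IFIT3, IFIT1 and IFIT5 lie together at chr10:89302046-89420997, OAS1, OAS3 and OAS2 at chr12:112906962-113011723, and IFITM2, IFITM1 and IFITM3 at chr11:307816-320860. MX2 and MX1 lie at chr21:41362027-41459214 and SAMD9 with SAMD9L at chr7:93099518-93148385. The IFITM genes resemble each other closely and USP18 has near copies, so reads could be split between them and their values are uncertain to that degree. Where neighbours moved together, as the IFIT and OAS genes did in MHHES1, they are not independent of each other.

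Total estimated counts per library ranged from 15974173 to 51413254. KCNN1, the gene the hairpin targets, had 37.8, 35.3 and 17.99 TPM (a transcript level scaled for length and depth) in the uninduced libraries and 10.2, 13.7 and 7.75 TPM in the induced ones, and the groups did not overlap. The summed TPM of 7 Ewing sarcoma markers ran from 1089 to 2560 in the Ewing sarcoma libraries and from 138.7 to 1031 in the osteosarcoma libraries, and that of 7 osteosarcoma and mesenchymal markers from 50.6 to 2329 and from 2843 to 7122. PRKCB, LIPI and CCK, from the Ewing sarcoma list, stayed under 1 TPM in every osteosarcoma library, but CCK was also low in A673 (1.98 TPM on average) and TC71 (1.03 TPM). The 10 leukocyte markers summed to between 5.91 and 32.4 TPM in Ewing sarcoma and between 9.70 and 383.3 TPM in osteosarcoma libraries. CD3E, LYZ and TYROBP stayed under 1 TPM in both tumour types. Library 3 of uninduced and of induced sh908 stood apart from the rest: 22.9% and 21.6% of all genes at 1 TPM or more were at least 2-fold above both other libraries of their group. In TC71 library 3, 13.1% of genes were at least 2-fold below both others. The sh908 comparisons are also given without their library 3. Without TC71 library 3, 3 members were again called between the tumour types.

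MHHES1 and G292 held the highest levels. Across the 13 lines, the level was summarised per library as the median over the 37 genes of log2(TPM + 1). This median was 4.49 ± 1.48 (SD, n = 3) in MHHES1, 4.12 ± 0.17 in G292 and 3.44 ± 0.28 in MG63. SAOS2 followed with 2.36 ± 0.21, RDES with 2.15 ± 0.09, KHOS with 2.10 ± 0.10 and EW3 with 2.04 ± 0.16. EW24 and U2OS both stood at 1.80, HOS-MNNG at 1.61, SKES1 at 1.41, TC71 at 1.26 and A673 at 1.19, with SDs between 0.11 and 0.28. Libraries of neighbouring lines in this order overlapped from SAOS2 down to A673. Those of G292, MG63 and SAOS2 did not overlap. MHHES1 could not be set apart from G292 or MG63, because its libraries ran from 3.41 to 6.18. Without MHHES1 library 3 its median was 3.65 and G292 ranked first.

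**Figure D1:**
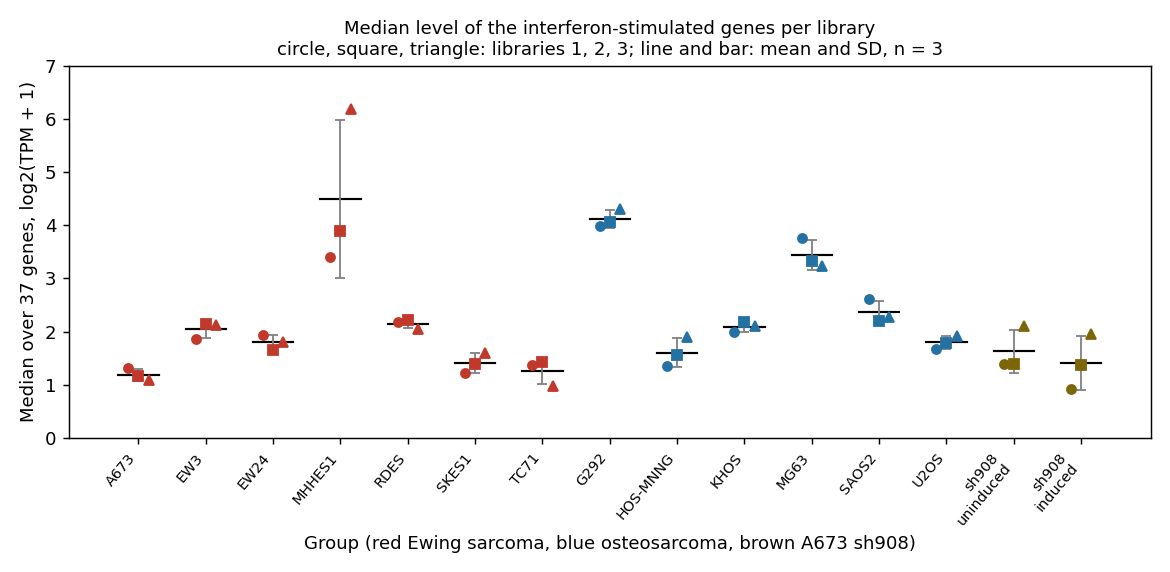
Median over the 37 interferon-stimulated genes of log2(TPM + 1), 1 point per library, by group. Circles, squares and triangles are libraries 1, 2 and 3, and the line and bar are the mean and SD (n = 3). MHHES1 library 3, at 6.18, is the highest point, and the G292 libraries lie between 3.99 and 4.31.

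Of the 37 genes, 15 had their highest mean TPM in MHHES1, 12 in G292 and 5 in MG63, which made 32 in these 3 lines. EW3 and SAOS2 were highest for 2 each and KHOS for 1. MHHES1 was among the 3 highest lines for 32 genes, G292 for 30 and MG63 for 19. With MHHES1 library 3 left out, MHHES1 was highest for 4 genes and G292 for 16. The lowest line was SKES1 for 9 genes and TC71 for 7. All 37 genes differed among the lines by more than the spread between libraries (edgeR quasi-likelihood F test, Benjamini-Hochberg false discovery rate, FDR, under 0.05), but so did 96.7% of all 23796 genes tested, so this count is near the background.

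**Figure D2:**
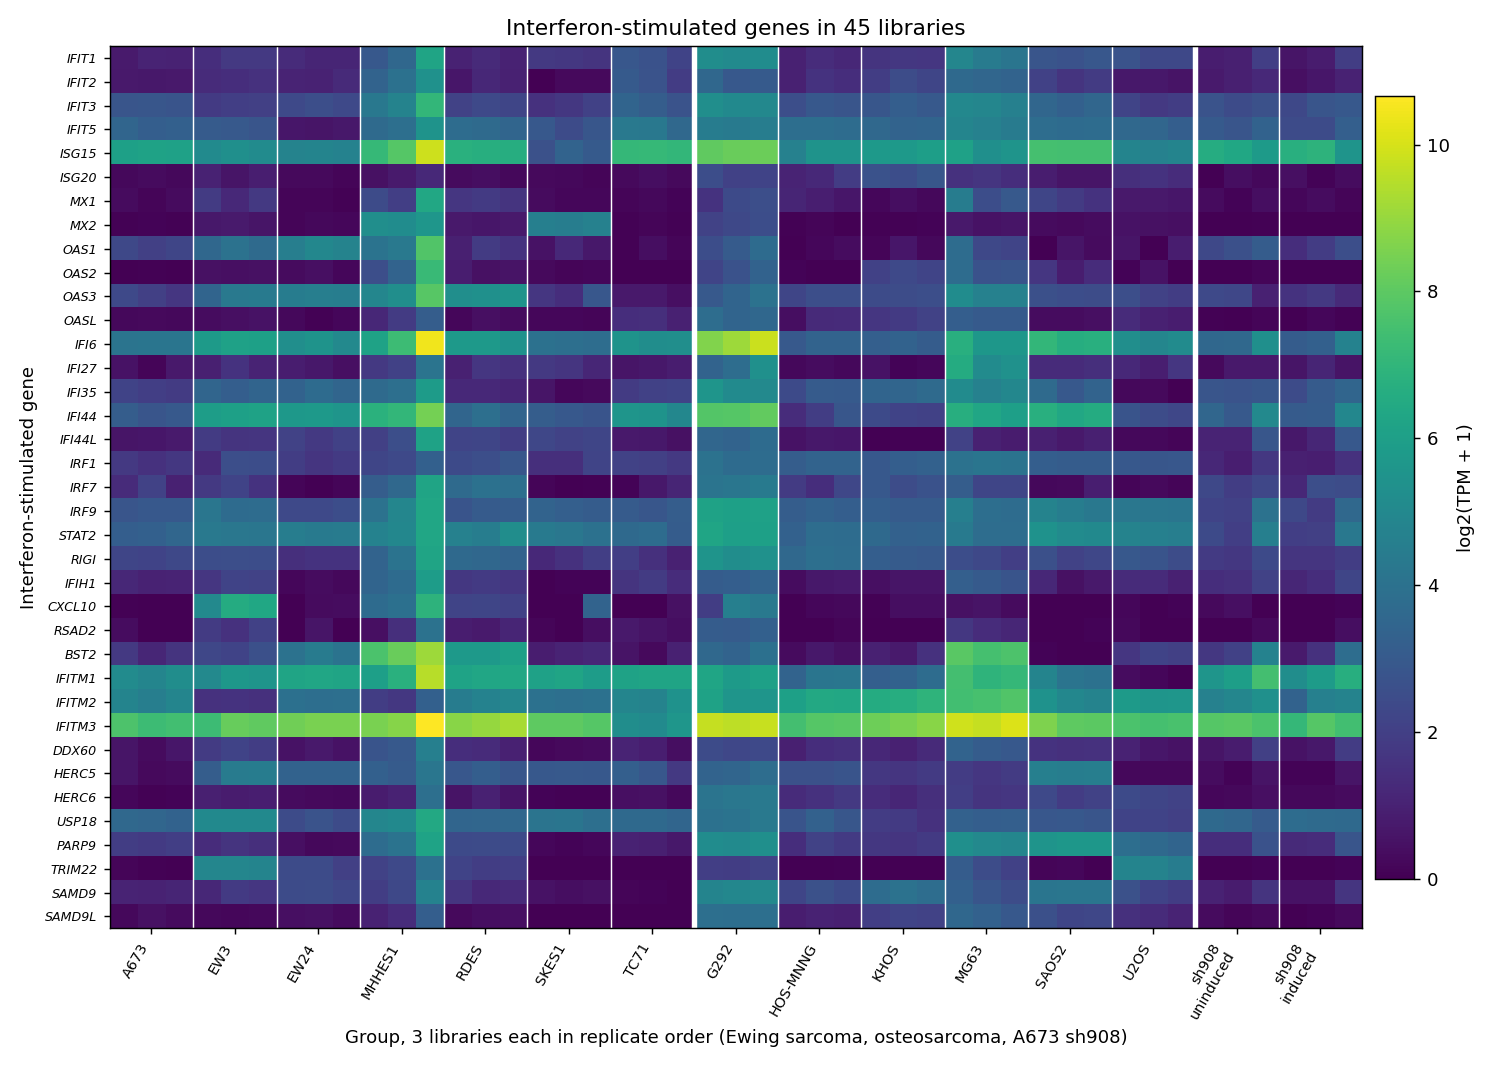
Heat map of log2(TPM + 1) for the 37 genes (rows) in all 45 libraries (columns, 3 per group in replicate order), with Ewing sarcoma lines at left, osteosarcoma lines in the middle and A673 sh908 at right. MHHES1 library 3 and the G292 libraries are bright over most rows, and IFITM3, ISG15 and IFI6 are bright in most columns.

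The sensors of viral RNA came first in the pathway. RIGI, which detects short double-stranded RNA with a 5′ triphosphate, reached 45.5, 36.3 and 41.1 TPM in G292 and 9.57, 15.7 and 74.0 TPM in MHHES1, against line means down to 1.87 TPM in TC71. IFIH1, which encodes the long double-stranded RNA sensor MDA5, averaged 26.7 TPM in MHHES1, or 11.1 TPM without library 3, and 8.47 TPM in G292. SKES1 averaged only 0.0543 TPM of it. The G292 libraries lay above those of every line except MHHES1 for RIGI, while IFIH1 was at 1 TPM or more in 8 of 13 lines.

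The transcription factors were measured in every line. STAT2, the ISGF3 subunit with the activation domain, had line means from 9.19 TPM in A673 to 68.0 TPM in G292, and IRF9, its DNA-binding partner, from 4.34 TPM in EW24 to 67.7 TPM in G292. IRF9 was 69.5, 66.0 and 67.6 TPM in the G292 libraries, with no overlap with any other line except MHHES1, whose library 3 had 78.1 TPM. IRF7, the factor that amplifies interferon alpha production, ranged further, from 0.0454 TPM in SKES1 to 31.3 TPM in MHHES1. Without MHHES1 library 3 that line averaged 9.46 TPM and G292 was highest, at 17.6 TPM. IRF1, a factor that also acts downstream of interferon gamma, ranged less, from 2.19 TPM in A673 to 15.8 TPM in MG63.

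Among the antiviral effectors, the highest levels were those of IFITM3, a membrane protein that blocks virus entry, with line means from 38.9 TPM in TC71 to 970.3 TPM in MG63. IFI6, an inhibitor of flavivirus replication, came to 401.4, 549.9 and 897.0 TPM in G292 and to 16.1, 16.5 and 16.5 TPM in A673. ISG15, a ubiquitin-like protein that is joined to other proteins, was at 264.9, 298.3 and 309.6 TPM in G292 and at 5.25, 9.67 and 7.12 TPM in SKES1. The G292 libraries lay above all SKES1 and A673 libraries for both genes. BST2, or tetherin, which holds budding virus at the cell surface, was highest in MHHES1 and MG63. It was 243.1, 182.6 and 204.3 TPM in MG63 and 0.08, 0 and 0 TPM in SAOS2.

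The IFIT genes, a cluster of RNA-binding proteins, were each highest in MHHES1, G292 or MG63. IFIT1 was 36.95, 33.6 and 35.3 TPM in G292 and 29.1, 20.5 and 16.5 TPM in MG63, against 0.72, 1.10 and 1.01 TPM in A673. IFIT3, which stabilises IFIT1 on RNA, was 37.1, 32.2 and 30.2 TPM in G292 and 1.86, 2.33 and 3.15 TPM in SKES1. IFIT2 was 0.02, 0.22 and 0.20 TPM in SKES1 and averaged 21.8 TPM in MHHES1, or 12.1 TPM without library 3, 10.5 TPM in MG63 being the highest osteosarcoma mean. IFIT5 was 0.57, 0.51 and 0.60 TPM in EW24, and the other 12 of 13 lines averaged 1 TPM or more.

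The oligoadenylate synthases did not share 1 order of lines. OAS3 was 37.4, 39.6 and 44.2 TPM in RDES, where OAS1 was 0.94, 2.60 and 1.95 TPM and OAS2 was 0.82, 0.41 and 0.49 TPM. In EW24, OAS1 was 22.5, 29.9 and 26.3 TPM and OAS3 was 20.99, 22.8 and 21.8 TPM, while OAS2 was 0.23, 0.36 and 0.13 TPM. The neighbours OAS1 and OAS2 thus lay far apart in that line. OASL, a catalytically inactive relative, was 13.2, 9.95 and 10.9 TPM in G292, its highest line, and averaged 1 TPM or more in 7 lines.

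The enzymes of ISG15 also differed by line. HERC5, the ligase that attaches ISG15 to new proteins, was 23.2, 22.1 and 22.8 TPM in SAOS2 and 0.19, 0.16 and 0.18 TPM in U2OS. USP18 was 32.2, 32.01 and 32.1 TPM in EW3 and 2.67, 2.50 and 1.85 TPM in KHOS, and all 13 lines averaged 1 TPM or more. ISG15 itself was 33.8, 38.4 and 34.6 TPM in EW3, so its level there was near that of USP18. PARP9, an ADP-ribosyltransferase that works with a ubiquitin ligase in the response, was 45.4, 48.5 and 49.0 TPM in SAOS2 and 0.15, 0.07 and 0.12 TPM in SKES1.

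Of the remaining effectors, IFI44, a cytoplasmic antiproliferative protein, was 221.7, 232.7 and 275.4 TPM in G292 and averaged 3.56 TPM in HOS-MNNG. SAMD9, an antiviral factor that inhibits translation, was 26.7, 29.2 and 31.4 TPM in G292 and 0.11, 0.06 and 0.01 TPM in TC71. RSAD2, or viperin, which makes a chain-terminating nucleotide, averaged 1 TPM or more in only 4 lines and was highest in G292, at 7.58, 7.36 and 8.69 TPM. DDX60, a helicase that promotes RNA sensing, had line means from 0.204 TPM in SKES1 to 12.02 TPM in MHHES1, which averaged 6.34 TPM without library 3, below MG63 at 7.94 TPM. In G292, markers of antigen-presenting leukocytes were also present: HLA-DRA was 258.7, 221.0 and 237.1 TPM and CD74 was 22.5, 17.4 and 22.1 TPM, while CD68 averaged 97.1 TPM there but also 107.9 TPM in KHOS and 89.3 TPM in HOS-MNNG. In the same libraries CD3E and TYROBP were at 0 TPM and PTPRC, the pan-leukocyte CD45, was between 0.342 and 0.395 TPM. Their part in the G292 levels was not tested.

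The levels of MX2, TRIM22, CXCL10 and IFITM1 departed from the order of the lines given above. MX2, a GTPase that restricts lentiviruses, was 37.1, 35.9 and 47.2 TPM in MHHES1 and 23.6, 22.2 and 24.8 TPM in SKES1, the line that was lowest for 9 members. Outside these lines, G292 had 4.004 TPM of MX2 on average, and it was under 1 TPM in the other 10. TRIM22, a ubiquitin ligase with antiviral activity, was 28.9, 28.8 and 26.9 TPM in EW3 and 27.1, 26.6 and 21.3 TPM in U2OS, and was listed at 0 TPM in all 3 TC71 libraries. CXCL10, a chemokine that attracts T cells, was 31.1, 93.0 and 80.1 TPM in EW3 and at 0 TPM in all 3 SAOS2 libraries. IFITM1 averaged 32.9 TPM or more in each Ewing sarcoma line and lay between 0 and 0.26 TPM in U2OS, where its neighbour IFITM3 had 201.5, 183.8 and 193.0 TPM.

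The levels of the 37 genes ran in parallel across lines to a moderate degree. Over the 13 line means, the median Spearman correlation between 2 members was 0.47, and 626 of 666 pairs were above 0. Without MHHES1 the median was 0.40 with 580 pairs above 0. OAS2, a synthase of 2′-5′ oligoadenylates that activate RNase L, followed the median of the other members most closely (rho = 0.97 over 13 lines), then MX1 (0.86) and SAMD9L (0.85). USP18, which removes ISG15 from proteins and damps receptor signalling, followed it least (0.16), then IFITM2 (0.21) and IFITM1 (0.22). Without MHHES1, IFITM2 stood at 0.50, IFITM1 at 0.0070 and USP18 at -0.070. These values describe 13 lines that share library preparation and are given without a test.

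Replicate libraries of MHHES1 differed far more than those of any other line. Library 3 had the highest TPM of all 37 genes. IFI6 was 69.9, 157.8 and 1401 TPM in libraries 1, 2 and 3. OAS2 was 4.92, 9.60 and 147.4 TPM, and MX1, a GTPase that traps viral nucleocapsids, was 4.44, 2.97 and 82.9 TPM. Libraries 1 and 2 were close to each other for OAS2 and MX1 beside the distance to library 3. IFITM3 was 361.8, 426.2 and 1623 TPM, ISG15 was 141.5, 230.6 and 918.5 TPM, and IFIT1, which binds viral RNA lacking a methylated cap, was 6.65, 10.9 and 73.2 TPM. CXCL10 was 12.1, 14.2 and 117.3 TPM, IFITM1 was 63.1, 109.0 and 740.6 TPM, and OAS1 was 15.6, 19.1 and 216.9 TPM. The RNA sensors followed, RIGI with 9.57, 15.7 and 74.0 TPM and IFIH1 with 9.80, 12.3 and 58.1 TPM. BST2, already high in libraries 1 and 2, was 200.9, 299.0 and 548.7 TPM, and IRF7 was 7.84, 11.07 and 74.9 TPM. STAT2 was 25.4, 30.02 and 79.1 TPM and IRF9 was 15.4, 28.7 and 78.1 TPM, so library 3 stood less far above the others for these factors than for IFI6, OAS2 or MX1.

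The ratio of library 3 to the higher of the other MHHES1 libraries was 1.27 for MX2, the lowest, and 18.7 for MX1, the highest, with a median of 4.53 over the 37 genes. It was at least 5 for 16 genes. On log2(TPM + 1), 32 of 37 genes (86.5%) were at least 2-fold above both other libraries, against 1.40% of the 14908 genes at 1 TPM or more in MHHES1. Those were 209 genes, and 15.3% of them were members. In each of the other 38 parental libraries the count was 5 or fewer: MG63 library 1 had 5, SKES1 library 3 had 2, G292 library 3 had 1 and the rest had 0. In MG63 library 1, MX1 was 21.2 TPM against 4.79 and 6.78 TPM, and IFI27, a mitochondrial interferon response protein, was 94.5 TPM against 33.95 and 40.5 TPM. The SD between libraries of log2(TPM + 1), as a median over the 37 genes, was 1.27 in MHHES1 and between 0.089 and 0.27 in the other 12 lines. Over all genes at 1 TPM or more in MHHES1 it was 0.12, so the spread was not shared by most genes.

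**Figure D3:**
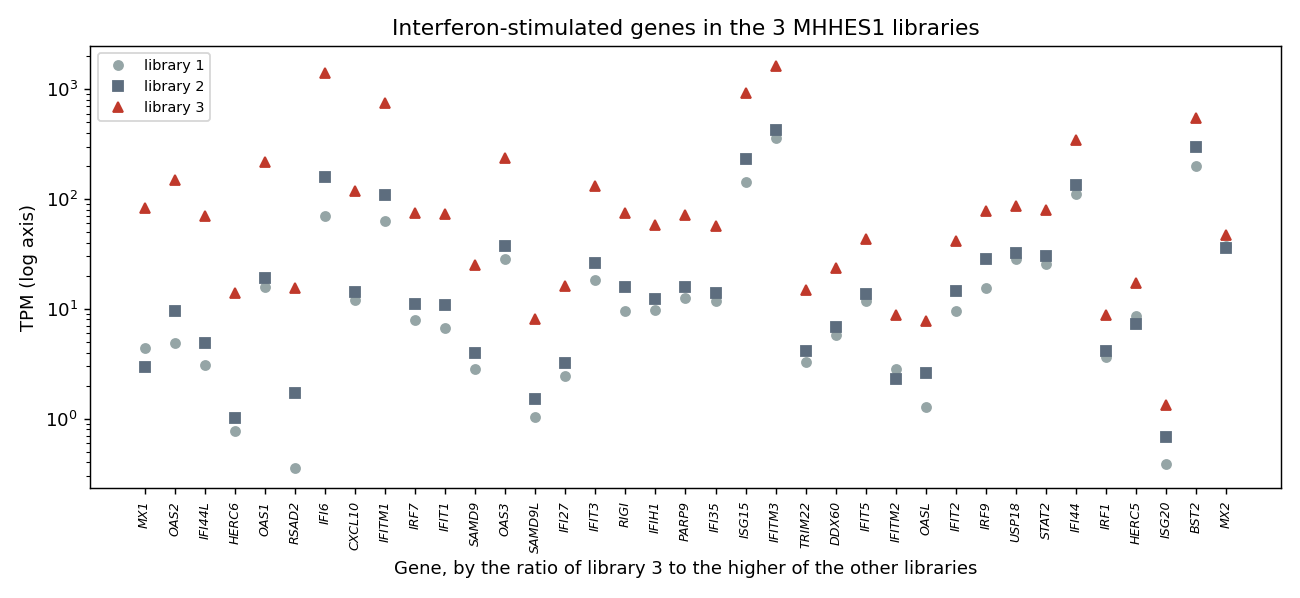
TPM (log axis) of the 37 genes in the 3 libraries of MHHES1, ordered by the ratio of library 3 to the higher of the other 2. Triangles, library 3, lie above both other libraries for all 37 genes, from 18.7-fold for MX1 at left to 1.27-fold for MX2 at right.

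Other genes of the pathway moved with library 3 in part. Of 43 other interferon-stimulated genes, 22 were at least 2-fold above both other MHHES1 libraries, as were 4 of 18 sensors and adaptors and 1 of 8 negative regulators. The next values were chosen after they were seen. JAK1 was 486.6, 439.3 and 503.0 TPM, with no such distance between libraries. IFNB1, which encodes interferon beta, had 1, 1 and 14 estimated counts (0.106, 0.123 and 1.33 TPM), and IFNL1, interferon lambda 1, had 0, 0 and 4. The IFNB1 and IFNL1 counts are too few for a fold. Depth was similar, at 26852222, 23550572 and 30089284 total counts. Transcript length less effective length, which follows fragment length, was 142.1, 170.0 and 137.7 nt, and the 10 leukocyte markers summed to 10.7, 10.1 and 14.9 TPM, with CD3E, HLA-DRA and TYROBP at 0 in all 3. PTPRC was 0.0225, 0.177 and 0.625 TPM (1, 9 and 32 estimated counts) and CD68 was 3.23, 2.28 and 4.55 TPM, so both were highest in library 3. The part of these in the difference was not tested.

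Genes lower in Ewing sarcoma than in osteosarcoma lines were IRF1, ISG20 and IFITM2. This comparison asked whether the tumour types differ, with the 3 libraries of each line summed and the lines as samples (7 against 6). IRF1 had line means from 2.19 to 5.51 TPM (median 2.96) in Ewing sarcoma and from 6.46 to 15.8 TPM (median 8.37) in osteosarcoma, and the groups did not overlap. Its log2 fold change was -1.70 (SE 0.32, edgeR FDR 0.0044). ISG20, an exonuclease that degrades viral RNA, ranged from 0.161 to 0.804 TPM (median 0.236) in Ewing sarcoma and from 0.621 to 5.50 TPM (median 1.81) in osteosarcoma, and the groups overlapped. Its log2 fold change was -2.77 (SE 0.56, edgeR FDR 0.0060). IFITM2, an entry inhibitor of late endosomes, ranged from 1.88 to 32.4 TPM (median 14.5) and from 32.7 to 192.8 TPM (median 66.3), so that TC71 lay just below SAOS2. Its log2 fold change was -2.45 (SE 0.66, edgeR FDR 0.026), and the call was lost without SKES1 or without MG63.

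All 37 genes passed the filter on low counts and were tested, and 0 were called higher and 3 lower in Ewing sarcoma. Of all 21975 genes, 5.99% were called higher and 8.46% lower, so the share of 3 in 37 is near the background. At an unadjusted p under 0.05 there were 8 members of 37, beside 29.5% of all genes. Line means of the groups did not overlap for 2 members (IRF1 and IFITM2), against 6.44% of 16538 genes. The median log2 fold change was -0.36 over the 37 genes and -0.06 over all genes, and 15 of 37 were above 0. With limma on log2(TPM + 1), 1508 genes were higher and 1120 lower, in place of 1317 and 1858, the median of all genes moved to 0.07, and 5 members were lower.

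This comparison depended on MHHES1. Without it, 8 members were called, all lower in Ewing sarcoma, the median over the members was -1.62 and 7 of 37 were above 0, beside 6.3% of all genes called lower and a median of -0.07 over all genes. With only MHHES1 library 3 left out, 6 were called, all lower, the median was -0.998 and again 7 were above 0, beside 8.62% of all genes called lower. OAS2, named after its values were seen, turned from a log2 fold change of 1.22 (edgeR FDR 0.70) to -4.53 (edgeR FDR 0.043) without MHHES1. Its line mean was 54.0 TPM in MHHES1 (7.26 TPM without library 3), and the median of the 7 Ewing sarcoma lines was 0.241 TPM against 2.58 TPM in osteosarcoma.

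The 6 uncalled genes with the widest differences varied widely within a tumour type. MX2 had a log2 fold change of 3.42 (SE 1.71, edgeR FDR 0.20), with line means from 0.0561 to 40.1 TPM in Ewing sarcoma and from 0.0587 to 4.004 TPM in osteosarcoma. OAS1, another oligoadenylate synthase, had 2.76 (SE 1.38, edgeR FDR 0.20), and its TPM ranged from 0.152 to 83.9 and from 0.145 to 8.19. MHHES1 gave the 83.9 TPM and averaged 17.3 TPM of OAS1 without library 3, below EW24 at 26.2 TPM. CXCL10 had a log2 fold change of 2.50 (SE 1.87, edgeR FDR 0.41), with EW3 highest at 68.1 TPM. The next 3 genes were lower in Ewing sarcoma by the fitted value, and the tumour types overlapped for all 6. SAMD9L, an antiviral translation inhibitor, had -3.20 (SE 1.29, edgeR FDR 0.11), with a median of 0.264 TPM in Ewing sarcoma and 3.71 TPM in osteosarcoma. HERC6, a relative of the ISG15 ligase, had -2.44 (SE 1.03, edgeR FDR 0.13), with medians of 0.296 and 2.87 TPM. IFI27 had -2.93 (SE 1.24, edgeR FDR 0.13), and MG63 alone averaged 56.3 TPM of it. For SAMD9L and HERC6 MHHES1 was the highest Ewing sarcoma line, at 3.55 and 5.24 TPM, or 1.28 and 0.890 TPM without library 3. HERC6 then no longer overlapped between the tumour types, since its lowest osteosarcoma mean was 1.49 TPM.

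**Figure D4:**
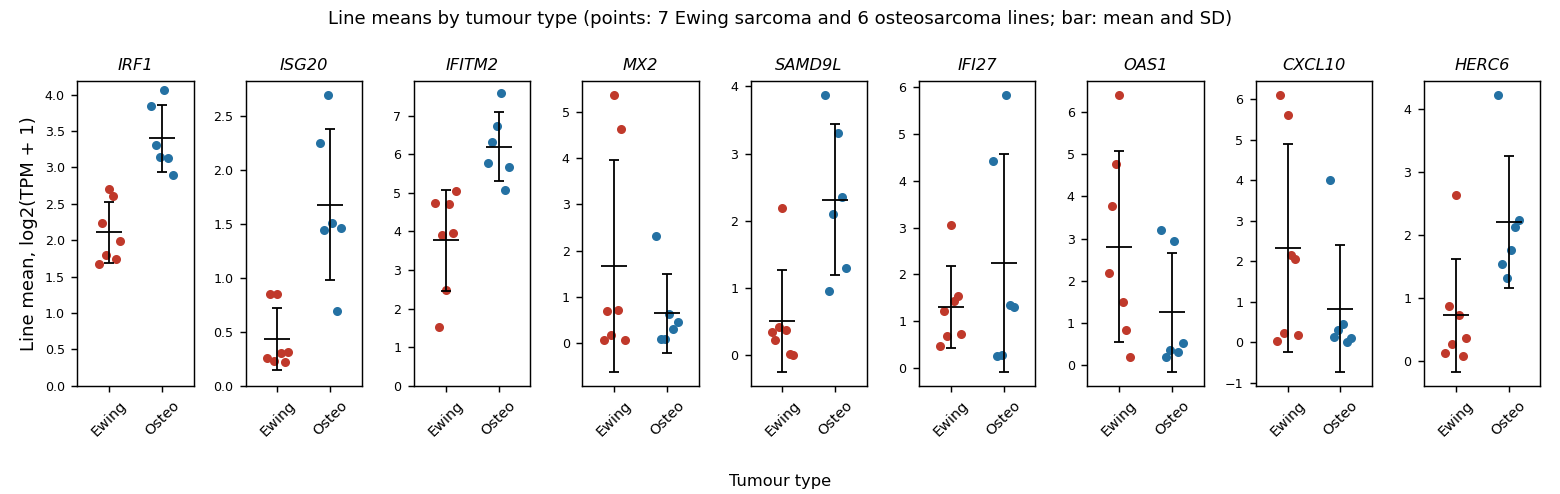
Line means as log2(TPM + 1) for the 3 genes called between tumour types (IRF1, ISG20, IFITM2) and the 6 uncalled genes with the largest log2 fold changes, each on its own axis. Points are 7 Ewing sarcoma lines (red) and 6 osteosarcoma lines (blue), and bars are mean and SD. The 2 colours do not overlap for IRF1 and IFITM2.

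Among the other genes of the pathway, calls between tumour types are set beside 5.99% of all genes called higher and 8.46% called lower, and a median log2 fold change of -0.06 over all genes. Of 11 receptor and signalling genes tested, 1 was higher and 0 lower in Ewing sarcoma. It was JAK1, the receptor kinase and the highest of its list at 169.0 TPM over the 13 lines, with a log2 fold change of 1.59 (SE 0.35, edgeR FDR 0.010). Of 8 negative regulators, 0 were higher and 1 lower: SOCS3, a feedback inhibitor of JAK kinases, with -2.46 (SE 0.54, edgeR FDR 0.0099). Of 18 sensors and adaptors, 0 were called, and ADAR, the RNA editing enzyme, was highest at 133.0 TPM. Of 43 other interferon-stimulated genes, 40 were tested, 0 were higher and 8 lower, with a median log2 fold change of -1.21 against -0.06 over all genes. The 4 with the lowest FDR were APOL1, a trypanosome lytic factor (-4.07, edgeR FDR 0.0025), IFI30, a lysosomal thiol reductase (-3.30, edgeR FDR 0.0084), SP140L, a nuclear body protein (-4.19, edgeR FDR 0.0091), and GBP3, a guanylate-binding protein (-4.36, edgeR FDR 0.016). Beside these, 2 leukocyte markers, CD68 and CD14, were lower in Ewing sarcoma (log2 fold changes -4.19 and -3.28, edgeR FDR 0.0038 and 0.034). Of the 10 markers 5 were tested, and the other 3 were not called and had fold changes above 0. Their part was not tested. In bulk RNA, fewer cells of a type and less RNA per cell cannot be told apart. The 21 interferon genes were too low for the test, and 2 reached 1 TPM in any library, IFNE with 4.86 TPM in MG63 library 1 and IFNB1 in MHHES1 library 3.

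Doxycycline changed 0 members by the test. With sh908 induced against uninduced (3 against 3 libraries), 28 of 37 members were tested, and edgeR called 0 of them and 0.0% of all 14252 genes. At an unadjusted p under 0.05 there were 0 members by edgeR and limma and 1 by DESeq2, and neither of the other tools called a member. The median log2 fold change was -0.27 over the members and -0.0022 over all genes, with 5 of 28 above 0. The 4 members with the lowest p were OAS1 (log2 fold change -0.84, SE 0.37), IFITM2 (-0.66, SE 0.34), IFIT5 (-0.36, SE 0.21) and IFIT2 (-0.60, SE 0.41), all with an edgeR FDR of 1.

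Libraries with the same number deviated together from their group means (correlations 0.49, 0.53 and 0.79 over 13187 genes), so the numbers were taken as pairs. Libraries 1 and 2 correlated as well across numbers (0.51 and 0.48), so which of them pair is not told by the data. With the replicate block, 73 genes were called (0.512%), of which 0 were members, and 8 of 28 members had an unadjusted p under 0.05, beside 13.2% of all genes. OAS1 was 3.91, 5.10 and 7.48 TPM uninduced and 1.62, 2.74 and 4.87 TPM induced, lower in 3 of 3 pairs, with a log2 fold change of -0.86 under the block (SE 0.23, edgeR FDR 0.14). BST2 was 2.33, 3.22 and 25.6 TPM uninduced and 0.71, 1.86 and 12.9 TPM induced, also lower in 3 of 3 pairs (-1.06 under the block, SE 0.26, edgeR FDR 0.13). IFITM2 was 24.9, 28.7 and 40.4 TPM against 9.36, 23.9 and 26.2 TPM (-0.73 under the block, SE 0.19, edgeR FDR 0.14). For all 3 genes the induced and uninduced libraries overlapped. Without pair 3 the block called 167 of 13785 genes and 1 of 25 members, OAS3 (-0.84).

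Within pairs, 11 of 24 members at 1 TPM or more were lower on induction in all 3 pairs, against 20.2% of 13187 genes, and 1, USP18, was higher in all 3, against 13.5% of genes. The median difference over the 24 members in log2(TPM + 1) was -0.40 in pair 1, -0.09 in pair 2 and -0.12 in pair 3, beside -0.06, 0.04 and -0.05 over all genes. No member, 0 of 24, had all induced libraries below all uninduced ones, against 1.27% of genes, and 1, USP18, had all induced libraries above all uninduced ones, against 2.12%. IRF7 went opposite ways, by -1.10 in pair 1 and by 0.64 and 0.21 in the others. ISG15 was 96.0, 80.7 and 54.6 TPM uninduced and 105.5, 116.8 and 44.8 TPM induced, so it was higher in 2 pairs and lower in the other.

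**Figure D5:**
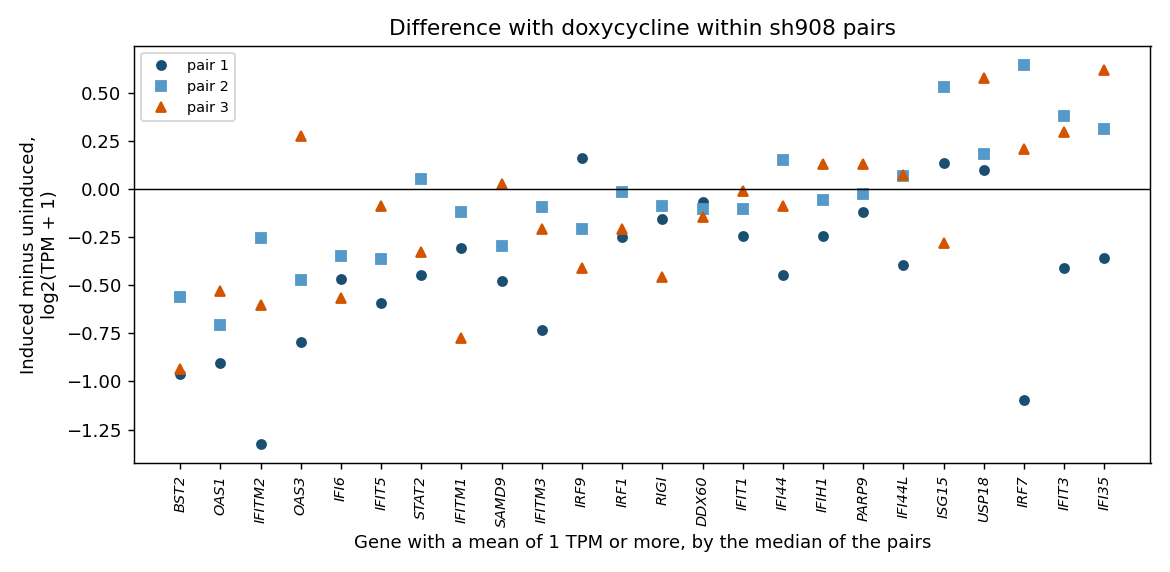
Induced minus uninduced log2(TPM + 1) in each of the 3 sh908 pairs, for the 24 genes with a mean of 1 TPM or more, ordered by the median of the pairs. OAS1, BST2, IFI6 and IFITM2 lie below 0 in all 3 pairs, USP18 lies above 0 in all 3, and IRF7 runs from -1.10 to 0.64.

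In both sh908 groups library 3 held more of several members than libraries 1 and 2. STAT2 was 4.33, 2.90 and 23.4 TPM uninduced and 2.91, 3.04 and 18.4 TPM induced. IRF9 was 3.39, 3.12 and 15 TPM and 3.90, 2.57 and 11.01 TPM, and IFI44L was 1.10, 1.08 and 6.23 TPM and 0.59, 1.19 and 6.59 TPM. In each group 10 of 24 members at 1 TPM or more (41.7%) were at least 2-fold above both others, beside the 22.9% and 21.6% of genes given above. ISG15 and OAS3 were lowest in library 3 of both groups, OAS3 with 4.14, 3.77 and 0.97 TPM uninduced and 1.96, 2.44 and 1.38 TPM induced. Induced and uninduced library 3 therefore shared their pattern for these genes.

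IFITM1, IFI35, IFIH1, IFI44L, OAS1 and IFITM2 were called higher in uninduced sh908 cells than in parental A673. The calls were lost when any 1 parental library was left out, while the log2 fold changes stayed above 0 and close to their values with all libraries. This comparison, which shares the uninduced libraries with the previous one, had 28 members tested, of which 6 were called higher and 0 lower, and 26 were above 0. Of all 15778 genes, 8.71% were called higher and 6.42% lower. IFITM1 was 34.1, 28.1 and 36.5 TPM in parental cells and 45.9, 61.6 and 175.6 TPM in uninduced sh908, with a log2 fold change of 1.92 (SE 0.35, edgeR FDR 0.020), and the groups did not overlap. IFI35, which binds other interferon-induced proteins, was 3.37, 2.90 and 2.64 TPM against 5.94, 5.71 and 6.19 TPM (1.51, SE 0.30, edgeR FDR 0.023). IFIH1 was 1.29, 1.005 and 1.12 TPM against 1.64, 1.75 and 3.28 TPM (1.34, SE 0.26, edgeR FDR 0.022). All 3 genes were higher in each sh908 library than in every parental library. IFI44L, a negative regulator of the response, changed by 2.42 (SE 0.58, edgeR FDR 0.039), OAS1 by 1.02 (SE 0.25, edgeR FDR 0.042) and IFITM2 by 0.76 (SE 0.16, edgeR FDR 0.027), on the log2 scale. For OAS1 and IFITM2 sh908 library 1 lay within the parental range, at 3.91 and 24.9 TPM, so the groups overlapped.

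Leaving out 1 library moved the calls more than the fold changes. Without any 1 parental library 0 members were called, and calls over all genes fell from 2388 to between 2 and 8. Over the 6 fits that each left out 1 parental or uninduced sh908 library, the log2 fold change was 1.42 to 1.67 for IFI35, 1.21 to 1.43 for IFIH1, 0.94 to 1.14 for OAS1 and 0.70 to 0.82 for IFITM2. It varied more for IFITM1, from 1.48 to 2.18, and for IFI44L, from 1.501 to 2.736, with the lowest value of both in the fit without uninduced sh908 library 3. Without uninduced sh908 library 1, 2 or 3 the members called were 4 of 30, 0 of 29 and 16 of 28. Beside these, 1377 of 16683, 266 of 16613 and 10202 of 16379 genes were called. In the last fit, without the library that stood apart, 15 members were higher and 1 was lower. The share of members called there was near that of all genes. With limma on log2(TPM + 1) the median of all genes was -0.38, 306 genes were higher and 2243 lower, in place of 1375 and 1013, and IFI35 was the 1 member called. Relative to that shift the median over the members was 0.25 against -0.38. The labels do not say how the sh908 cells were made or grown beside the parental cells, so the hairpin construct and the handling of the line cannot be told apart.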

How the data were processed

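Poly(A) RNA was measured in 45 libraries, for each of which the authors deposited a table of 177816 RefSeq transcripts. Estimated counts (expected counts, unscaled) and TPM, scaled by the authors, were 2 of its columns per the file headers. The remaining columns, length and effective length (other values, per the file headers), served only to describe fragment length. The submitters' processing notes name fastp 0.19.5 and kallisto 0.46.2 with hg38 and GRCh38.p14. Libraries were made with the TruSeq Stranded mRNA kit, per the labels. Such estimates split reads between similar transcripts by a model, so values of close paralogs are uncertain.

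Transcripts were joined to genes through RefSeq for GRCh38.p14 (95.6% matched; unmatched ones held 0.915% to 1.598% of counts and were left out), and estimated counts and TPM were summed per symbol. No 2 libraries held identical values. Gene sums were rounded, filtered with filterByExpr, scaled by TMM and fitted with edgeR 4.0.16 (robust quasi-likelihood F tests). P-values were adjusted over all genes tested by the Benjamini-Hochberg method and called at an FDR under 0.05. Tumour types were compared over 13 line sums, the other groups over libraries. The pseudocount was 1 TPM. The scripts were tested on simulated data. Alternatives used DESeq2 1.42.0, limma 3.58.1, other scalings and filters, a replicate block and left-out libraries or lines, under R 4.3.3 and Python 3.11.15.

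The 37 genes, the other lists and the tests were chosen with earlier results of these data known. TPM is given for any member. Fold changes are named for called members, for the 6 uncalled members with the largest change between tumour types and for the 4 lowest p with doxycycline. Of the other lists, up to 4 called genes and the highest in TPM are named. Exceptions are stated. Pairing by replicate number rests on the correlations between same-numbered sh908 libraries, since the labels do not say what a number marks.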

Additional observations from a re-analysis of the deposited data

Results flagged for a closer look

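Within each tumour type, the line means of each gene were checked for 1 line far from the rest on the log2(TPM + 1) scale. Of 74 sets checked, 15 had such a line. Chance gives about 1 in 20 for a single set. The genes ran in parallel across the same lines, so the sets are not independent and 15 cannot be read against that rate. In 11 of the 15 sets MHHES1 was high among the Ewing sarcoma lines. Its mean TPM was 542.8 for IFI6, 304.2 for IFITM1, 59.0 for IFIT3, 54.0 for OAS2, 30.3 for IFIT1, 30.1 for MX1, 26.7 for IFIH1, 25.9 for IFI44L, 7.30 for IFI27, 5.24 for HERC6 and 3.55 for SAMD9L. Without library 3, 2 of the 37 genes had MHHES1 as such a line. HERC5, the ligase that attaches ISG15, was low in A673 at 0.318 TPM. Among the osteosarcoma lines G292 was high for HERC6 (17.7 TPM), CXCL10 (14.97 TPM) and MX2 (4.004 TPM).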

How the results depend on the processing

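Between tumour types the count of called members was 3 and became 9 with DESeq2, 5 and 6 with limma on log2(TPM + 1) and log2(TPM + 0.1), 14 in 39 libraries with the replicate block, which treats libraries of a line as independent, and 6 with MHHES1 without its library 3. Leaving out 1 replicate or 1 line gave 2 to 8 (OAS2 fold change -4.53 to 1.85). All genes called rose from 3175 of 21975 to 5402 of 21486 with DESeq2, which tested 34 members. They rose to 8837 of 18052 with that block, which tested 36 members. With limma they were 2628 and 2980 of 19034, and without MHHES1 library 3 they were 3216 of 21947. The higher member counts with DESeq2 and with the block thus came with more calls over all genes. OAS2 turned sign to -3.41 with DESeq2, -0.57 and -1.40 with limma on log2(TPM + 1) and log2(TPM + 0.1), -0.68 in 39 libraries with the replicate block, -1.86 without replicate 3, -1.89 without MHHES1 library 3 and -4.53 without MHHES1; the cause was not tested. The other 9 members named with a fold change between tumour types kept their sign wherever they had a value. CXCL10 had no value without replicate 2 or 3 or in 39 libraries with the block, and HERC6 none with DESeq2. Members with the lowest p with doxycycline and those called between uninduced sh908 and parental cells also kept their sign. BST2 and OAS3, named with doxycycline under the block, were below 0 in each block fit. Their sign was not followed in the remaining alternatives. With MHHES1 without its library 3, the ranks of MHHES1 and G292 became 2 and 1. Ranks of all 13 lines were the same with a pseudocount of 0.1 TPM. All 37 genes differed among lines in each of 10 alternatives.

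For doxycycline, members called were 0 in each alternative except the replicate block without pair 3, which gave 1; genes called were 0 in the unblocked fit, 2 with DESeq2, 12 with all 45 libraries in 1 fit, 73 with the replicate block, and 10, 7 and 167 without pairs 1, 2 and 3. For uninduced sh908 against parental A673, the 6 of 28 members called became 11 of 28 with DESeq2. They were 1 of 25 with limma on log2(TPM + 1), 1 of 28 with the replicate block and 0 to 16 without 1 library. Genes called went from 2388 of 15778 to 4169 of 15691, 2549 of 15379 and 319 of 15778. Without 1 library they ran from 2 to 10202. Same-numbered libraries there correlated by 0.01 to 0.11, so they share only a number. No depth limit was tested beyond the filter.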
